A study of Homo sapiens with 8 samples.

Results

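The windows described here lie on chromosome 19 between 45 and 52.3 Mb of hg19, a stretch of the long arm that corresponds roughly to bands 19q13.32 and 19q13.33. They were chosen by position alone, and all 8 libraries were used. The stretch holds 6122 of the 256141 windows of the deposited table, or 2.39%. Merging windows with gaps of 100 bp or less gave 801 of 35741 regions, the first starting at 45004051 and the last ending at 52207800. The label of the stretch calls it gene-dense, which was not checked because no annotation of hg19 was at hand.

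FAIRE-seq sequences DNA that stays in the aqueous phase when formaldehyde-fixed chromatin is extracted with phenol and chloroform. Such DNA carries few crosslinked nucleosomes and marks open chromatin, typically promoters and enhancers. AIRE is a transcriptional regulator of thymic epithelium that raises the expression of many tissue-restricted genes, and etoposide traps topoisomerase II on cut DNA so that double-strand breaks persist. This part of chromosome 19 is known for housekeeping and DNA repair genes (ERCC1, ERCC2, LIG1, POLD1), the p53 targets BAX and BBC3, and tissue-restricted clusters such as the kallikrein-related peptidases and the chorionic gonadotropin beta genes. These genes are named as background, and no window was assigned to any of them.

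The cells were AIRE-Tet, a Tet-On Advanced derivative of the embryonic kidney line HEK293 in which doxycycline induces human AIRE. There were 4 groups of 2 biological replicates. Control cells received neither drug, Dox cells were induced with doxycycline at 1.5 µM, and Etop cells were exposed to etoposide at 2 µM over 24 h. DoxEtop cells received both, with 24 h of doxycycline at 1.5 µM before the same etoposide exposure. How long the Dox cells were induced is not recorded in the sample details used here, so Dox and DoxEtop cells may differ in length of induction. Dox and DoxEtop are called the induced libraries. Whether the line is 1 clone is not given in the sources used here. The cells are not thymic. No doxycycline-treated cells lacking the transgene were analysed here, so the drug and AIRE cannot be told apart, and in bulk samples neither can fewer open cells and less opening per cell.

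Each value is a count in a window of 150 bp, with a new window every 50 bp, so neighbouring windows share fragments and are not independent events. Column totals ran from 4489871 to 8275911, which add up overlapping windows and so exceed the number of fragments counted, and the stretch took 109572 to 214817 counts per library. Levels are given in CPM, counts per 1000000 of the TMM-adjusted column total. A window was called when its adjusted p from edgeR's quasi-likelihood test, with Benjamini-Hochberg adjustment over all windows of the table, was below 0.05. These p-values measure the spread between libraries of which each group has 2.

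Density of open regions was compared only with neighbouring parts of chromosome 19, between which the stretch lay. Its regions had a median width of 350 bp, as in the whole table, covered 407.1 kb and numbered 111 per Mb, against 219 per Mb in the adjoining stretch of like length directly before it and 40 per Mb from its end to the end of the chromosome. The median window level was 3.66 CPM, against 3.42 CPM in the whole table, and 34.6% of the windows had a level above 4.38 CPM, which 25% of the table's windows exceed. The median gap between regions was 2.72 kb, and the widest gap, 238 kb, ran from 48372550 to 48610601. Of the 801 regions, 131 consisted of 1 window.

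In 8 of the 10 regions of highest level the induced and other libraries overlapped. The highest, chr19:46233701-46234550, averaged 7.85 CPM per window. Its 8 libraries lay between 6.97 CPM (Control replicate 1) and 8.52 CPM (DoxEtop replicate 2), the induced and other libraries overlapped, and no window in it was called in any comparison. The next, chr19:50083651-50084050, averaged 7.62 CPM, with 6.04 to 8.93 CPM over the libraries and overlapping groups. In 2 of the 10, chr19:48707001-48707600 and chr19:49990201-49991050, every induced library lay below every other library. Their mean levels were 6.88 against 8.17 CPM and 6.05 against 7.56 CPM, and neither region held a called window in the AIRE main effect. The AIRE main effect alone left 581 of the 801 regions without a called window. Of the 50 regions of highest level, 28 had none in any comparison, for which the share over all regions is not given here. The 3 of these with the least spread were chr19:46233701-46234550, chr19:50183801-50184350 and chr19:47539001-47539400, with coefficients of variation over the 8 libraries of 8.31%, 9.46% and 9.99%.

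The first question was which open sites of the stretch changed with AIRE induction, comparing the 4 induced libraries with the 4 others and fitting etoposide as a second factor. Open chromatin was lower at 603 windows and higher at 64. The lower windows were 9.85% of the stretch, where 6.17% of the whole table was lower. The share was 10.1% in the rest of chromosome 19 and 10% after the stretch, so it was not particular to the stretch. The higher windows were 1.05% of the stretch, where 1.27% of the whole table was higher. Lower windows thus made up 90.4% of the calls in the stretch, 82.9% in the table and 89.7% in the rest of chromosome 19. The fitted change had a median of -1.47 (log2) among lower windows and 1.06 among higher ones. All 603 and all 64 had the same sign in Dox against Control and in DoxEtop against Etop. The effect is made up from these pairs, so calling on it favours a shared sign and this is no separate support. Over all windows the pairs shared a sign in 69.4% of the stretch and 67.3% of the table. Called or not, 644 windows had all induced libraries below all others (7.49% in the table, 10.5% in the stretch) and 224 had all of them above (4.98% in the table, 3.66% in the stretch). Of the called windows, 433 lower and 47 higher ones were among these.

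**Figure D1:**
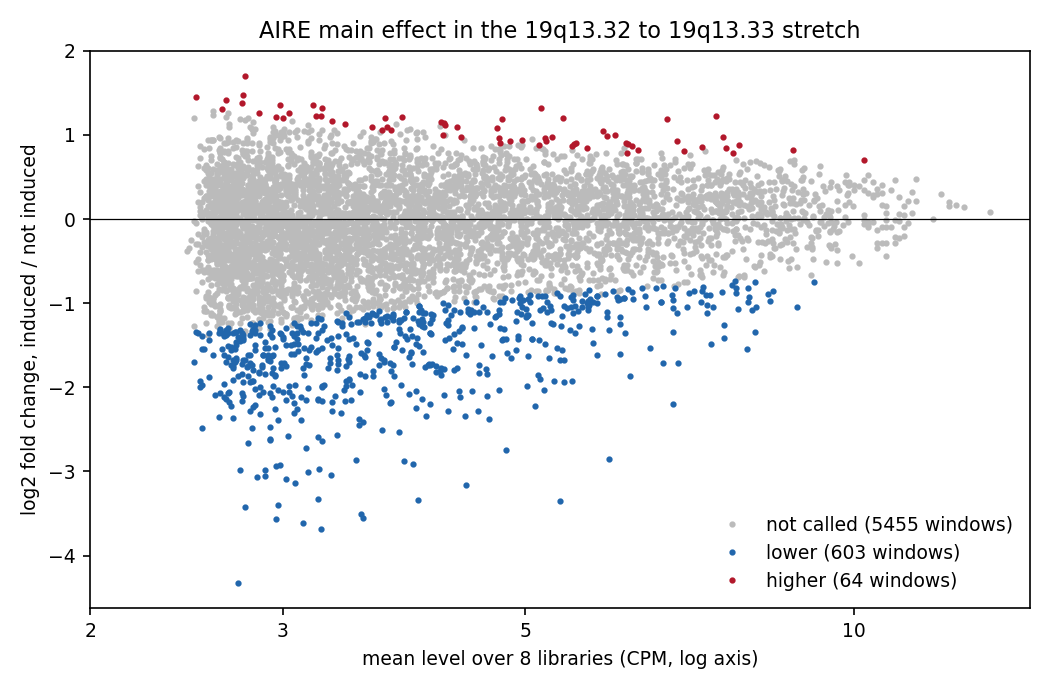
AIRE main effect in each of the 6122 windows: mean level over 8 libraries (x axis, CPM, log scale) against the fitted log2 fold change of induced over other libraries (y axis). The 603 lower windows (blue) reach further from 0 than the 64 higher ones (red); grey windows were not called.

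Counted by region, with Simes' p over the windows of each, 138 of 801 regions were lower (12.9% in the table) and 8 were higher (1.42% in the table). A lower window was present in 195 regions (16.2% in the table), a higher window in 38 (4.58% in the table) and both in 13 (0.61% in the table). By mean level per region, every induced library was below every other in 100 regions (9.74% of regions in the table) and above every other in 24 (4.79%). In 36 regions every window was lower (3.88% in the table). In the AIRE main effect 581 of the 801 regions had no window called, a smaller share than in the table. The 10 regions with the most lower windows held 114 of them, or 18.9%, so the losses were spread over many sites.

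The count rested in part on single libraries. Without Control replicate 2 it was 281 windows (270 lower, 11 higher), without DoxEtop replicate 1 it was 316, without Dox replicate 2 it was 432, and without Control replicate 1 it rose to 769. limma-voom called 35 windows (32 lower, 3 higher), whereas DESeq2 called 546. An intensity-dependent loess scaling gave 512 (449 lower, 63 higher). Control replicate 1 was the lowest of the libraries without induction in 395 of the 603 lower windows.

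Among windows above the stretch's median level, the strongest losses took sites from a clear signal to a few counts. Windows were named only if called and if the compared groups did not overlap. Separate groups were thus a condition of naming, not a result. At chr19:46195601-46195750 the Control libraries had 74 and 74 counts and the Etop libraries 86 and 31, against 4 and 8 in Dox and 2 and 5 in DoxEtop. All 4 induced libraries were far below the lowest of the others, with 0.972 ± 0.586 against 9.78 ± 2.45 CPM (SD, n = 4 each). The pooled level was 10.6-fold lower (95% counting interval 6.67 to 17.9), and the fitted log2 change was -3.35 (SE 0.359, edgeR adjusted p = 5.52e-09).

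The window chr19:50320701-50320850 had 24 and 81 counts in Control and 43 and 36 in Etop, against 6 and 3 in Dox and 0 and 5 in DoxEtop. Control replicate 1 was the lowest of the 4 uninduced libraries and still above every induced one. The pooled level was 10.0-fold lower (interval 5.82 to 18.7) and the fitted log2 change was -3.34, which became -1.56 with an intensity-dependent loess scaling, still called.

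The third site, chr19:46365851-46366000, had 25 and 62 counts in Control and 61 and 49 in Etop, against 2 and 8 in Dox and 3 and 4 in DoxEtop. Control replicate 1, at 3.01 CPM, was again the lowest uninduced library and lay above the highest induced one, at 1.76 CPM. The pooled level was 8.83-fold lower (interval 5.37 to 15.5). At chr19:50179551-50179700 the counts were 26 and 70 in Control, 27 and 47 in Etop, 2 and 12 in Dox, and 1 and 3 in DoxEtop. The groups were separate there too, although Dox replicate 2 stood above the other induced libraries; the fitted log2 change was -2.91, or -1.64 with loess scaling, still called.

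The other 6 of the 10 named losses had fitted log2 changes between -2.53 and -2.19. They were chr19:49375351-49375500, chr19:50372751-50372900, chr19:47103951-47104100, chr19:45829551-45829700, chr19:48949001-48949150 and chr19:45989151-45989300. Among these the gap between the groups was widest at chr19:47103951-47104100, with 50 and 59 counts in Control and 57 and 37 in Etop against 9, 4, 8 and 9 in the induced libraries. It was narrowest at chr19:50372751-50372900, with 2.29 CPM in Control replicate 1 against at most 1.53 CPM in the induced libraries. At each of the 10 named losses the uninduced libraries alone exceeded the 111 summed counts that every window of the table has. Each thus passed that floor through the arm in which it was high. Checks with other settings start from windows chosen in this way and are no separate support. All 10 remained called with either of the other scalings, with the stricter filter, by DESeq2 and without any single library, and limma-voom called none of them (adjusted p = 0.152 to 0.39).

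Some short sites were lower over their whole width. These were singled out after their values were seen. The region chr19:45829401-45829850 had all 7 of its windows lower. At chr19:50872451-50872750, where all 4 windows were lower, the window chr19:50872451-50872600 had 8 and 71 counts in Control and 55 and 11 in Etop, against 4, 1, 2 and 2 in the induced libraries. The spread among the uninduced libraries was wide there, from 8 to 71 counts, and the fitted log2 change was -3.57. The deposited table holds only windows with at least 111 summed counts. This window passed that floor through its uninduced libraries, with 145 counts in them and 9 in the induced ones.

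Gains were smaller and had less support. Named gains followed the same rule, so their groups had to be separate. At chr19:49618151-49618300 the Control libraries had 20 and 18 counts and the Etop libraries 24 and 15, against 33 and 30 in Dox and 51 and 36 in DoxEtop. Every induced library was above every other one, with 7.39 ± 1.46 against 2.96 ± 0.489 CPM, and the log2 change was 1.32 (SE 0.292, edgeR adjusted p = 0.0018). At chr19:48972901-48973050 the counts were 44 and 39 in Control and 23 and 15 in Etop, against 35 and 51 in Dox and 55 and 70 in DoxEtop. Scaled to column totals the groups were separate, at 10.5 ± 2.97 against 4.43 ± 1.33 CPM, and the Dox libraries were closer to Control than the DoxEtop libraries were to Etop.

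The third gain, chr19:45147151-45147300, had 28 and 20 counts in Control, 18 and 12 in Etop, 40 and 26 in Dox, and 43 and 26 in DoxEtop. In CPM these groups were separate, and the fitted log2 change was 1.19. The other 7 named gains had fitted log2 changes of 0.96 to 1.14 with adjusted p-values from 0.023 to 0.0485. They were chr19:50305801-50305950, chr19:46145351-46145500, chr19:45572401-45572550, chr19:46388651-46388800, chr19:49946251-49946400, chr19:49458151-49458300 and chr19:46974701-46974850. A shorter site below the median level, chr19:45251951-45252400, was singled out after its values were seen and had 3 of 7 windows higher. Its first window had 11 and 11 counts in Control and 7 and 5 in Etop, against 17 and 15 in Dox and 27 and 28 in DoxEtop (log2 change 1.70). Every induced library was above every other one in CPM. Of the 10 named gains, 2 to 8 kept their call when 1 library was left out, 7 with loess scaling, 9 with DESeq2 and 2 with limma-voom.

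**Figure D2:**
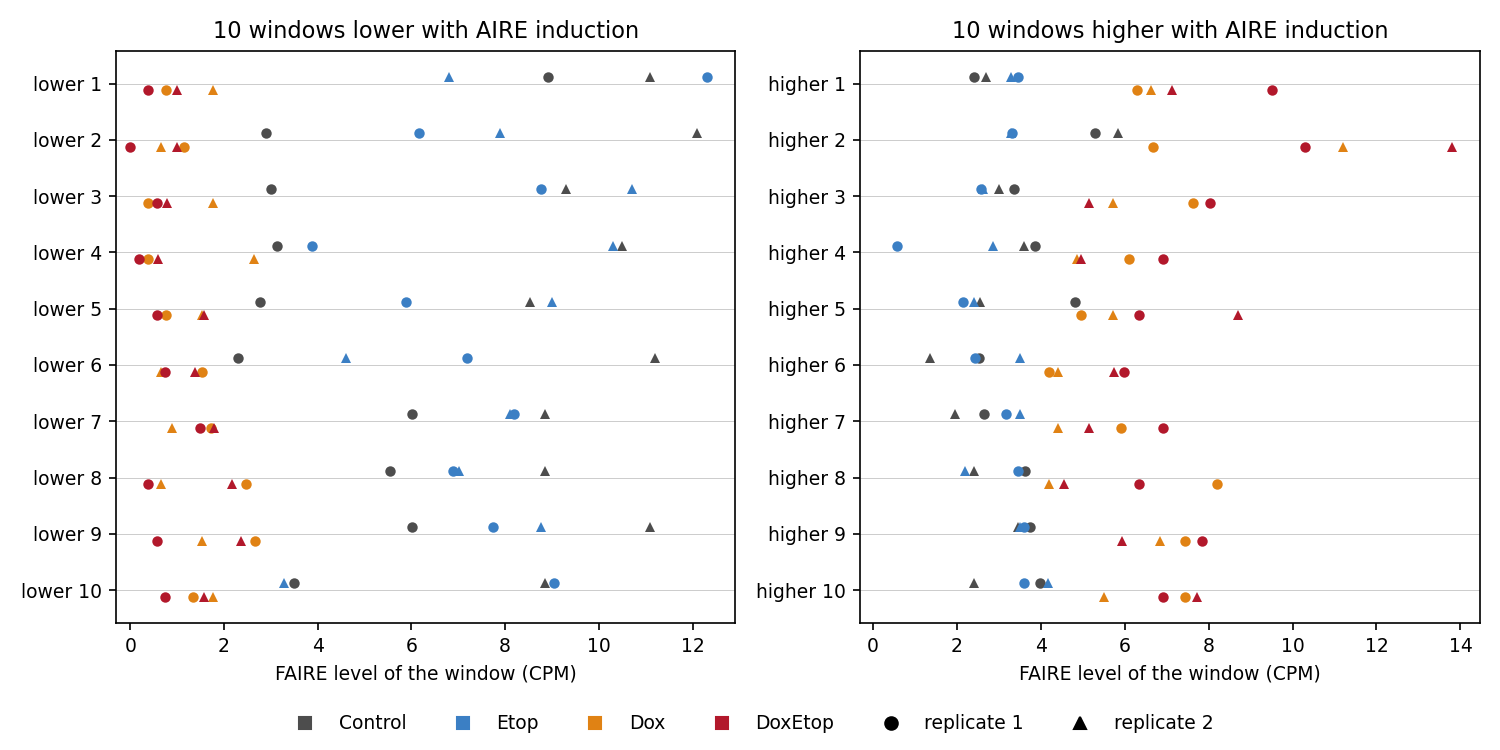
Level (x axis, CPM) of the 10 lower (left) and 10 higher (right) named windows, in the order of the text, for each of the 8 libraries; colour gives the group and marker shape the replicate. At the first lower window the uninduced libraries lie between 6.80 and 12.3 CPM and the induced ones at or below 1.76 CPM, while at the first higher window they lie between 2.41 and 3.45 CPM and between 6.29 and 9.51 CPM.

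Within single regions, openness changed unevenly. The region with the most lower windows, chr19:50178901-50181950, had 22 of 51 windows lower, most of them in both flanks. At 800 bp before its centre the uninduced libraries had 3.13 to 10.5 CPM and the induced ones 0.187 to 2.65 CPM. At 300 bp before its centre, near its summit, the uninduced libraries had 5.04 to 10.8 CPM and the induced ones 7.28 to 12.1 CPM, with a fitted log2 change of 0.17 (adjusted p = 0.712). At 850 bp after the centre the fitted change was -1.62.

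The region chr19:46195001-46196300, which holds the window at 46195601, had 13 of 24 windows lower and 1 higher. Its higher window lay 425 bp after the centre, where the induced libraries had 5.53 to 8.38 CPM and the others 0.431 to 6.14 CPM, so that the groups overlapped. The region chr19:48971651-48973200 had 5 windows lower on one side and 5 higher on the other. At 300 bp before its centre the uninduced libraries had 5.92 to 10.9 CPM and the induced ones 0.989 to 3.75 CPM. At the centre the fitted log2 change was 0.04, and at 550 bp after it the induced libraries had 6.67 to 13.8 CPM against 3.29 to 5.84 CPM. Its mean over all windows therefore hid opposite changes, at 5.29 and 7.52 CPM in Control and 5.79 and 5.80 CPM in Etop against 4.29 and 5.95 CPM in Dox and 6.36 and 5.79 CPM in DoxEtop.

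**Figure D3:**
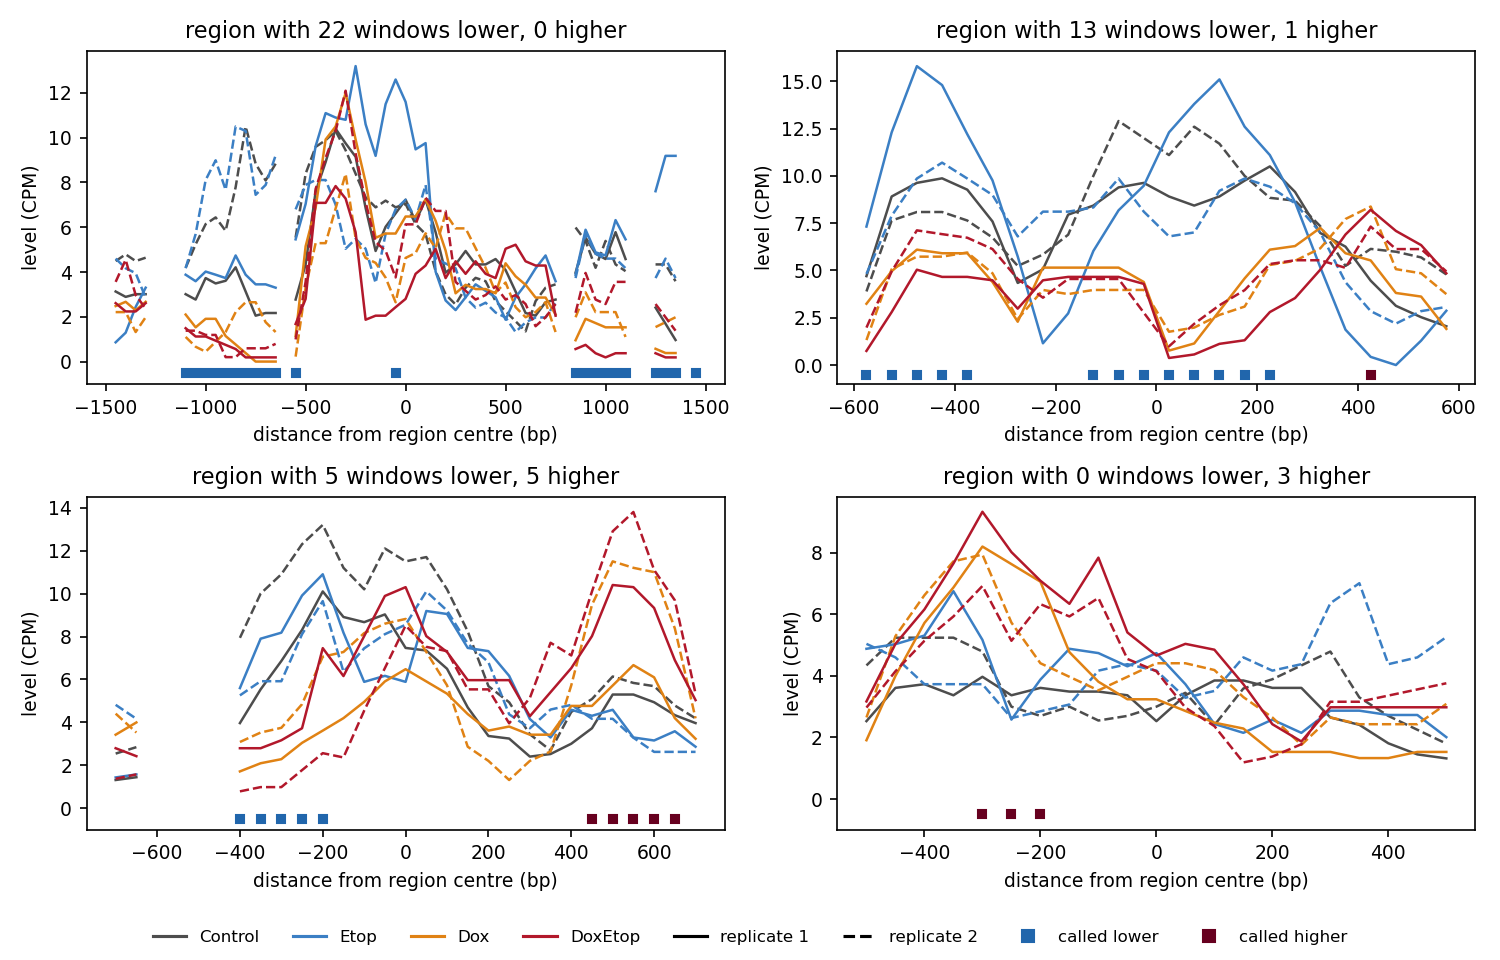
Level (y axis, CPM) by distance from the region centre (x axis, bp) in 4 regions, with 1 line per library; squares mark windows called lower (blue) or higher (dark red), and breaks are positions without a window in the table. From top left to bottom right the regions start at 50178901, 46195001, 48971651 and 45146901, with 22, 13, 5 and 0 windows lower.

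Of the 13 regions that held both directions, the most called windows were in chr19:46144151-46146000 (12 lower and 3 higher of 31), chr19:46195001-46196300 and chr19:46387901-46390550 (11 lower and 1 higher of 51). In regions of 9 or more windows, the windows were divided into 3 equal parts by position. In the middle part 6.58% were lower (3.98% in the table), and in the outer parts 10.2% (5.32% in the table). Their median levels were 4.55 and 3.83 CPM. Among the 248 such regions, 100 held a lower window, and in 80 of those 100 the window of highest level was not itself lower. In the table this held for 1985 of 2370 such regions. Windows of regions with fewer than 9 windows were lower in 11.7% (8.21% in the table), at a median level of 3.04 CPM. The levels differ between these parts, and the part of level in the shares was not tested. Over the whole stretch the share of lower windows was 8.92%, 9.76%, 11.7% and 9.3% in the table's level quartiles, from the lowest to the highest. The median log2 change in these quartiles was -0.197, -0.161, -0.132 and 0.012. The share of higher windows was 0.516%, 0.697%, 0.959% and 1.65%.

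The widest regions differed from each other. The widest, chr19:46270051-46274550, spanned 4500 bp and had no lower and 3 higher windows. Its libraries had 4.48 to 4.87 CPM without induction and 5.10 to 5.45 CPM with it, so every induced library was slightly above every other. The second widest was chr19:50178901-50181950, described above, where the mean was 3.22 against 5.23 CPM. The third, chr19:47729301-47732150, had 1 lower and 1 higher window, and its groups overlapped.

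Lower windows were also counted by region width, beside the table and with no test of the difference. In regions up to 300 bp they were 12.2% against 9.93%, and in regions over 1000 to 2000 bp 10.3% against 4.64%. The median log2 change in the latter class was -0.052 in the stretch and 0.148 in the table. The deposited table holds only windows with at least 111 summed counts (113 in the stretch), and uninduced libraries had the larger totals. A selection that treats both arms alike, added after seeing the data, kept 4939 windows of the stretch. Of these 435 were lower and 57 higher, and the shares in the same classes were 11.9% against 7.65% and 9.07% against 4.12%.

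The losses were not evenly placed along the stretch. In intervals of 0.5 Mb counted from 45 Mb, the share of lower windows ran from 2.99% to 13.1%. It was highest in the third interval (97 of 738 windows) and in the eleventh (89 of 728, or 12.2%), which hold the first 4 of the 10 named losses, at 46195601, 50320701, 46365851 and 50179551. In the thirteenth and fourteenth intervals it was 4.08% and 2.99%. These were the only intervals with a median log2 change above 0, at 0.107 and 0.157, and they remained above 0 when any single library was left out (0.08 to 0.137 and 0.01 to 0.221). With the selection alike in both arms, the fourth interval was also above 0, at 0.034. In the fourteenth, 5 windows of 134 were higher and 4 lower. The other 13 intervals had medians from -0.173 to -0.028.

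**Figure D4:**
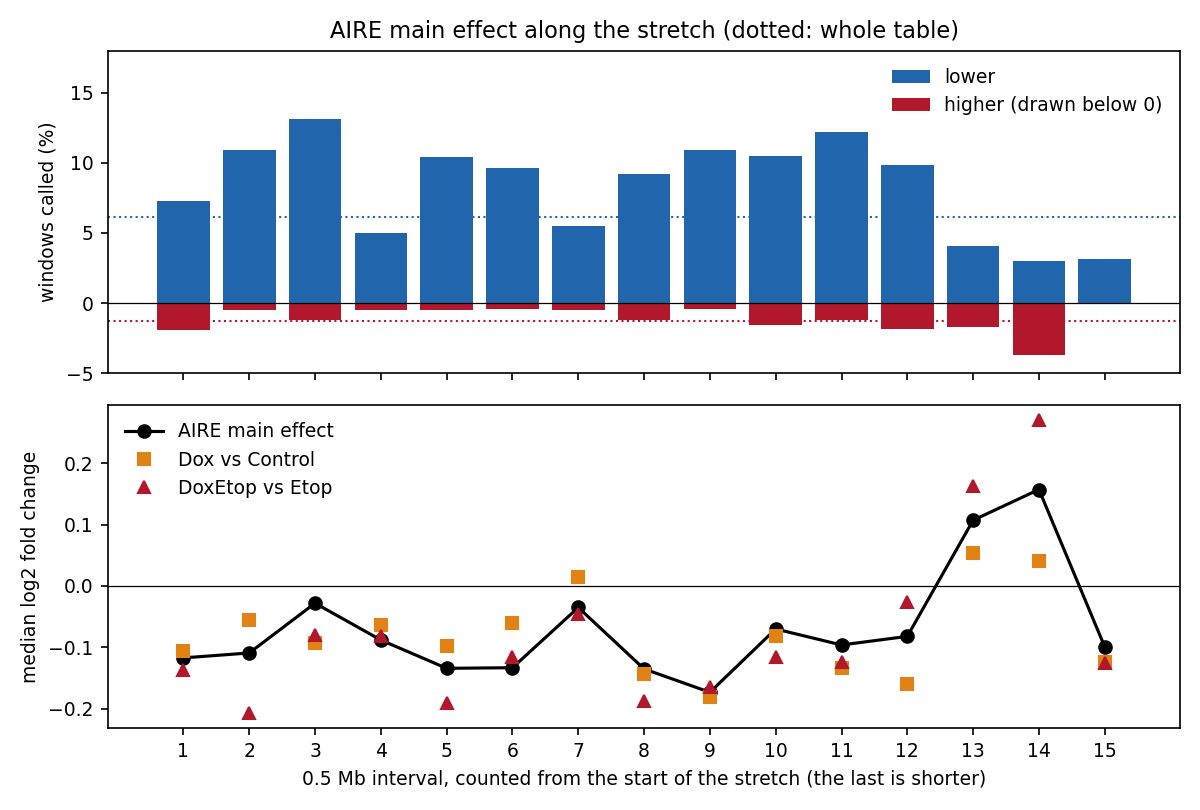
AIRE main effect in 0.5 Mb intervals counted from the start of the stretch (x axis). Upper panel: percent of windows lower (blue bars) and higher (red bars, drawn below 0), with dotted lines at 6.17% and 1.27% for the whole table; lower panel: median log2 fold change of the main effect and of both pairs, which lies above 0 in the thirteenth and fourteenth intervals.

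Over all windows of the stretch the median log2 change with induction was -0.089, against 0.036 in the whole table and -0.123 in the rest of chromosome 19. By library, the median log2 level relative to the mean of the 8 libraries was 0.037 and 0.067 in Control, 0.144 and 0.106 in Etop, -0.040 and -0.068 in Dox, and -0.055 and 0.035 in DoxEtop. All 4 induced libraries were below every uninduced one, DoxEtop replicate 2 only just below Control replicate 1. The mean was -0.032 ± 0.046 with induction and 0.088 ± 0.0464 without (SD, n = 4 each), a difference of -0.12. The same difference was -0.141 in the rest of chromosome 19, -0.259 in the adjoining stretch before and -0.074 after the stretch. The lower level was thus not limited to these 801 regions, and the adjoining stretch before had the larger share of lower windows, 13.9%.

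The next question was what induction did without and with etoposide. In Dox against Control, 70 windows were lower, 1.14% of the stretch (0.848% in the table), and 0 were higher (0.0156% in the table). In DoxEtop against Etop, 251 were lower, 4.1% (2.43% in the table), and 30 higher, 0.49% (0.45% in the table). In the rest of chromosome 19 the lower shares were 1.62% without and 4.48% with etoposide. Counted as regions by Simes' p, 22 were lower (1.84% in the table) and 0 higher (0.0168%) without etoposide, and 62 lower (5.36%) and 7 higher (0.613%) with it. These comparisons share no library. Both called 41 windows lower, which was 58.6% of the 70 and 16.3% of the 251, and 248 of the 251 were below 0 in Dox against Control. In the table the shared windows were 57.6% and 20.1% of the respective lists, and 6057 of 6226 were below 0. The larger number with etoposide is no test of a difference. The pairs may also differ in length of induction, which is not recorded here for the Dox cells. The interaction had 0 windows called by edgeR, 224 with an unadjusted p below 0.05 (3.66% of the stretch, 4.14% in the table), and 0 by DESeq2 or limma-voom.

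Both counts depended on single libraries. Dox against Control had 0 calls by edgeR without Control replicate 2, Dox replicate 1 or Dox replicate 2, with 288, 610 and 506 windows at an unadjusted p below 0.05, and 170 without Control replicate 1. With Etop replicate 1 or 2 left out it had 111 and 125, with DESeq2 6 and with limma-voom 0. DoxEtop against Etop had 3 calls when DoxEtop replicate 1 was left out. Omitting Etop replicate 1 gave 69 calls and omitting Etop replicate 2 gave 464, while DESeq2 gave 93 and limma-voom 0.

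In both pairs the window at 46195601 was among the named losses, with log2 changes of -2.99 in Dox against Control (edgeR adjusted p = 0.000847) and -3.81 in DoxEtop against Etop (edgeR adjusted p = 6.65e-05). The other losses named in Dox against Control were at 50320701 (-2.98) and at chr19:49956301-49956450 (-2.74), chr19:49339151-49339300 (-2.62) and chr19:46144201-46144350 (-2.61). At 50320701 the value was -1.64 without Control replicate 2 and, with loess scaling, -1.25 (edgeR adjusted p = 0.49). None of the 5 losses was called without Control replicate 2, Dox replicate 1 or Dox replicate 2. At chr19:49339151-49339300 the Control libraries had 30 and 45 counts and the Dox libraries 6 and 2, while Etop had 65 and 37 and DoxEtop 14 and 14. Both pairs were separate there, which the naming required only of Dox against Control. The DoxEtop libraries kept 2.69 CPM on average and the Dox libraries 0.793 CPM.

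In DoxEtop against Etop the strongest named loss was chr19:50179501-50179650, with 33 and 48 counts in Etop and 3 and 1 in DoxEtop (log2 change -4.21). At chr19:49955101-49955250 the Etop libraries had 69 and 16 counts and the DoxEtop libraries 2 and 6, while Control had 41 and 66 and Dox 13 and 21. Its log2 change of -3.13 was not called without Etop replicate 1 (-2.16) or DoxEtop replicate 1 (-2.52). Levels were lower in the induced libraries of both pairs, with the Dox libraries between the DoxEtop and Control libraries. The 5 named gains of this comparison were chr19:46196051-46196200, chr19:51339151-51339300, chr19:50015951-50016100, chr19:50305801-50305950 and chr19:48972901-48973050. In the first 4, Etop replicate 1 had only 0, 2, 1 and 4 counts, below every other library. Without that library the log2 change fell from 2.81 to 1.58, from 2.22 to 1.22, from 2.18 to 1.07 and from 1.91 to 1.05. None of the 5 was called without it (edgeR adjusted p = 0.0514 to 0.471) or without DoxEtop replicate 1 (edgeR adjusted p = 0.058 to 0.341).

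**Figure D5:**
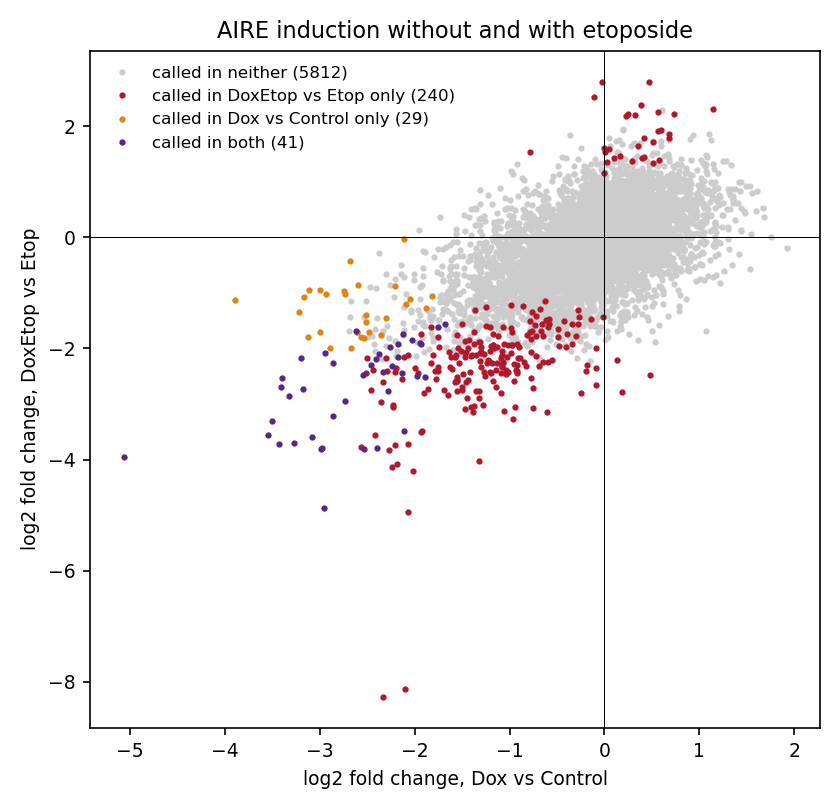
Fitted log2 fold change of each window in Dox against Control (x axis) and in DoxEtop against Etop (y axis), comparisons that share no library; colours mark windows called in one comparison, in both or in neither. The 41 windows called in both all lie below 0 on both axes, and the 2 points furthest down have 0 counts in both DoxEtop libraries, so their fitted values are no measure of size.

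DoxEtop against Control, which shares its libraries with the comparisons above, had 143 lower windows, 2.34% of the stretch (1.48% in the table), and 3 higher, 0.049% (0.154% in the table). The lower share was 2.91% in the rest of chromosome 19. By Simes' p, 35 regions were lower (3.16% in the table) and 0 higher (0.168%). Its count was 0 without DoxEtop replicate 1 by edgeR, with 570 windows at an unadjusted p below 0.05, 1 without Control replicate 2 and 95 without DoxEtop replicate 2. DESeq2 called 34 and limma-voom 0. The strongest named losses were the window at 50179551 (log2 change -4.05) and the windows at 50320701 (-3.88) and 46195601 (-3.85). The gains were at 49618151 (1.70) and at chr19:50354301-50354450 (1.54), where Control had 20 and 19 counts and DoxEtop 44 and 36, and Dox, with 28 and 25, lay between them in CPM. Neither gain was called by DESeq2 (adjusted p = 0.0526 and 0.0994) or limma-voom, or without Control replicate 1, Control replicate 2 or DoxEtop replicate 1. Of these 3 losses, those at 50179551 and 50320701 were not called by DESeq2 (adjusted p = 0.133 and 0.128) or without Control replicate 2. With loess scaling they were -2.80 and -2.14, also not called, and none of the 3 was called without DoxEtop replicate 1.

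Etoposide alone changed no window past the threshold. The main effect of etoposide had 0 calls by edgeR, DESeq2 and limma-voom, with 389 windows at an unadjusted p below 0.05, 6.35% of the stretch (5.83% in the table), and a smallest adjusted p of 0.557. Etop against Control had 0 calls by all 3 tools with 313 such windows (5.57% in the table), and 5 by edgeR without Etop replicate 2. DoxEtop against Dox had 0 by all 3 tools with 254 (4.26% in the table). The median standard error of a log2 change was 0.36 for the main effect and 0.51 for a comparison of 2 against 2 libraries. The median log2 change with etoposide over the stretch was 0.068, against 0 in the table.

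The windows of smallest p are given as values. At chr19:46916851-46917000 Etop had 32 and 22 counts, or 4.71 CPM on average, whereas Control had 97 and 83 (12.1 CPM), Dox 66 and 52 (12.0 CPM) and DoxEtop 62 and 48 (10.5 CPM). Only the Etop libraries stood apart at this site (log2 change -1.35, edgeR adjusted p = 0.855). At chr19:49178701-49178850 Etop was the high group, with 103 and 59 counts (13.9 CPM), against 48 and 35 in Control (5.51 CPM), 45 and 29 in Dox (7.49 CPM) and 40 and 44 in DoxEtop (8.08 CPM). At chr19:50143701-50143850, within a region with 13 of 22 windows lower with induction, Etop had 11.8 CPM against 5.35 CPM in Control, and DoxEtop had 4.85 and 5.14 CPM against 2.29 and 2.21 CPM in Dox. Both etoposide groups were higher than their partners there (log2 change 1.15, edgeR adjusted p = 0.557).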

How the data were processed

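FAIRE-seq libraries of AIRE-Tet cells were read as 100 bp paired ends and each library was sequenced more than once, per the labels' protocols. The submitters' processing notes list Trim Galore, Bowtie2, Bowtie and hg19, with no version of the tools. The deposited values are raw counts per 150 bp window, with no normalization by the authors that the sources used here record. How windows were chosen, duplicates handled and input used is not given in the sources used here, and input was not analysed here.

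All 256141 windows were fitted with edgeR 4.0.16 in R 4.3.3 (TMM, glmQLFit, glmQLFTest, two-sided) and adjusted over all of them. An additive model gave both main effects and a model of 4 group means the other comparisons. filterByExpr removed 0 windows, and the common biological coefficient of variation was 26.3%. Simes' p was adjusted over 35741 regions. Alternatives used RLE and loess scaling, no or a stricter filter, DESeq2 1.42.0, limma-voom (limma 3.58.1), a replicate block and leaving out each library. The procedure was also run on simulated, independent windows. The windows of the table overlap, so that run is no support for the calls. Intervals of pooled folds are exact at 95% and cover counting error only.

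Named windows were 1 per region: the 10 lowest and 10 highest fold changes of the AIRE main effect (5 and 5 elsewhere) among called windows above the stretch's median level whose groups did not overlap, and, with fewer than 20 calls, the 3 smallest p as values. Regions were named as the 10 of highest level, the 3 widest, 3 uncalled and 3 with both directions. The stretch, lists and rules were chosen with earlier results of these data known. Planned gene lists were not used because no hg19 annotation was at hand, and no sequences are printed for the same reason.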

Additional observations from a re-analysis of the deposited data

Results flagged for a closer look

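In groups of 4 libraries, induced or not induced, 42 were examined for a library far from the other 3, and 2 were found, where chance gives about 5%. At the window 50179551 Dox replicate 2 had 2.65 CPM, against 0.187 to 0.593 CPM in the other induced libraries. At the window 46145351 Control replicate 1 had 4.82 CPM, against 2.15 to 2.55 CPM in the other libraries without induction.

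At 4 of the named windows induction moved the level one way without etoposide and the other way with it, in every library of each pair. Only named windows were searched, and these 4 had been named for a small p in the interaction, DoxEtop against Dox or Etop against Control. That choice favours opposite directions, and the share of such windows over the table was not counted. The interaction was tested and had an edgeR adjusted p of 1 at each. At the window 49956501 the log2 change was -0.78 in Dox against Control and 1.54 in DoxEtop against Etop, an interaction of 2.32. At the window 46000151 it was -0.55 and 1.02, an interaction of 1.57. The opposite order was seen at the window 49649151, with 0.67 and -1.42 (interaction -2.09), and at the window 49178701, with 0.44 and -0.78 (interaction -1.23).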

How the results depend on the processing

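The median log2 change of the stretch with induction stayed below 0 in every setting tried (-0.118 to -0.065 without 1 library, -0.054 with windows selected alike in both arms), and no named window changed sign. Among the recomputed counts and summaries 120 stayed close to their value and 32 did not. Close meant within 1.5 times for a count and within the pooled SD of 0.0462 for the median of the stretch. Many of the 120 were counts of 0 that stayed at 0. Among the recomputed values of named windows, 647 kept their side of the threshold, 160 lost their call and 1 gained it. The 647 include windows given as values only, which had no call to lose. They also include the setting without a filter, which repeats the main fit because filterByExpr removed 0 windows. Windows called for AIRE induction numbered 442 with the stricter filter, 35 with limma-voom, 146 as regions by Simes' p and 281 to 769 without 1 library. For Dox against Control they numbered 29 with loess scaling, 6 with DESeq2, 0 with limma-voom, 22 as regions, 46 with the like selection and 0 to 170 without 1 library. For DoxEtop against Etop they numbered 182 with loess scaling, 93 with DESeq2, 0 with limma-voom, 69 as regions and 3 to 464 without 1 library. For DoxEtop against Control they numbered 93 with loess scaling, 34 with DESeq2, 0 with limma-voom, 35 as regions and 0 to 204 without 1 library, the highest without Etop replicate 1. Etop against Control had 0 to 5. The cause was not tested, except that regions and the stricter filter count fewer units. Replicate numbers did not pair the libraries (correlations of deviations from -0.073 to 0.12 in the whole table and from -0.049 to 0.137 in the stretch). With the replicate block the counts were 634 for induction, 50 for Dox against Control, 260 for DoxEtop against Etop, 125 for DoxEtop against Control and 0 for the others. A lone library left in a group is assumed to vary like the other groups. Depth and 2 libraries per group limit single windows, whose median standard error in the pairs was 0.51.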
